A study of Mus musculus with 16 samples.

Results

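The genes described here encode the 5 subunits of the muscle nicotinic acetylcholine receptor: Chrna1, Chrnb1, Chrnd, Chrne and Chrng. They were chosen by gene name, and all 5 were found in both RNA-seq tables of the study, among 21011 genes in skeletal muscle and 38933 genes in cortical bone. The mice were female C57BL/6 animals from the National Institute on Aging colony, 18 months old when treatment began. BAY-treated mice received BAY2416964, an antagonist of the aryl hydrocarbon receptor (AhR), by oral gavage for 8 weeks, with a dose of 30 mg/kg given 5 days a week, and VEH-treated mice received the carrier of ethanol, Solutol and water on the same schedule. Each tissue had 4 libraries per group, with no gene deletion or transgene in either group. Muscle RNA came from 1 tibialis anterior per mouse, and bone RNA came from shafts digested with collagenase after the marrow stromal cells had been taken out. Since these are bulk samples, fewer cells of a type and less RNA per cell cannot be told apart.

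The receptor is the channel by which a motor nerve excites a muscle fibre: acetylcholine released from the nerve ending opens it, and the membrane depolarizes. Each channel is a ring of subunits in which alpha, encoded by Chrna1, carries most of the transmitter binding surface, and beta, delta and either gamma or epsilon complete the ring. The foetal form contains gamma, encoded by Chrng, the adult form at the mature synapse contains epsilon, encoded by Chrne, and a muscle fibre that loses its nerve is known to transcribe the gamma gene again.

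On the mm39 build, in the files' coordinates, Chrnd (chr1:87118329-87127792, plus strand) and Chrng (chr1:87132379-87140416, plus strand) are neighbours, 4586 bp apart. Chrna1 lies at chr2:73393559-73410682 on the minus strand, and the antisense lncRNA Gm30940 shares 601 bp of exon with it. Chrnb1 (chr11:69674862-69686769) and Chrne (chr11:70505709-70510042) are both on the minus strand, and Chrne overlaps 4930544D05Rik on the opposite strand with 0 bp of shared exon. The strand setting of the counting is not given in the sources used here, so reads of Chrna1 and Gm30940 over the shared stretch may not have been separated.

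The sequences before the starts of Chrng and Chrne are shown because these genes are the ones that distinguish the foetal from the adult receptor. They are RefSeq sequences of build GRCm38.p6, 250 bases long and ending at the annotated start, for Chrng at chr1:87205561-87205810 (plus strand) and for Chrne at chr11:70619195-70619444 (minus strand). Capitals mark the E-box, CANNTG, the site of the MyoD family of myogenic factors, and the N-box, CCGGAA or its reverse complement, the site of Ets-family factors known from synaptic genes. The E-box reads as an E-box on both strands, and no E-box overlapped an N-box.
Chrng: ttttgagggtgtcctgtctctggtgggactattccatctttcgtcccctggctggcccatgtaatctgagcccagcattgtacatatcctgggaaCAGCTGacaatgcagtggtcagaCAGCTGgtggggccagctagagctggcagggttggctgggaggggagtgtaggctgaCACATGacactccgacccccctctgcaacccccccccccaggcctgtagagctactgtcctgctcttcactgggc
Chrne: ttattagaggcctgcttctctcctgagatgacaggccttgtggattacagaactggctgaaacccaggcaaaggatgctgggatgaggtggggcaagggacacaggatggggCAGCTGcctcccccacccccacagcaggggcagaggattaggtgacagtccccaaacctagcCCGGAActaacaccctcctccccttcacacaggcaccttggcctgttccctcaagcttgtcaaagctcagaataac
The window of Chrng contained 3 E-boxes and 0 N-boxes. The window of Chrne contained 1 E-box and 1 N-box. The windows of Chrna1 and Chrnb1 each contained 3 E-boxes and 0 N-boxes. Among 32851 RefSeq promoter windows of the same length, 66.2% held an E-box, 12.0% held 3 or more and 12.0% held an N-box. The matches are given as a description.

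In skeletal muscle the libraries held 6131926 to 9262383 reads on genes, and in cortical bone 930306 to 6951917. Low values were whole multiples of 1 read's worth, to within 0.02 reads, for 81.2% to 83.4% of values up to 50 reads in muscle and 86.2% to 88.4% in bone, which allowed reads to be recovered. A floor of 3 reads came to 0.324 to 0.489 CPM (counts scaled to a common library total) in muscle and 0.432 to 3.22 CPM in bone, and it covers counting error only, as PCR copies are not independent molecules. The muscle column of VEH replicate 3 carries a name that marks it as a replacement, and that library had the highest summed level of Schwann cell markers, 57.2 CPM against at most 35.5 CPM in the others. It was also the highest for the osteoblast and osteocyte markers in the table (159 against at most 54.0 CPM), for the embryonic and perinatal myosins (38.1 against at most 32.2 CPM) and for Chrng, and the part of these in the Chrng value was not tested. In bone, VEH replicate 1 was the deepest library and stood apart from the rest of its group, as described with the bone results. The tissue labels were checked against marker genes: 13 muscle fibre markers summed to between 121124 and 202413 CPM in every muscle library, and 12 osteoblast and osteocyte markers summed to between 1482 and 30270 CPM in bone. In bone VEH replicate 1, however, the fibre markers summed higher than the bone markers, at 10798 against 7236 CPM. The same held for bone BAY replicates 1 (40488 against 1986 CPM) and 2 (44114 against 1711 CPM). In the other bone libraries the osteoblast and osteocyte markers summed higher. Muscle held 5 of the 12 osteoblast and osteocyte markers, at 32.0 to 159 CPM. They were Col1a1, Col1a2, Alpl, Dmp1 and Phex, with highest VEH values of 86.4, 61.5, 10.1, 0.648 and 0.54 CPM. The collagen genes Col1a1 and Col1a2 thus made up most of the highest sum, and the other markers of that list were absent from the muscle table.

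Transcripts of the 5 subunits in aged tibialis anterior ranged from a mean of 16.6 CPM for Chrnb1 to 0.289 CPM for Chrng, with Chrng at or under the floor of 3 reads in 7 of 8 libraries, and none differed between BAY-treated and VEH-treated mice by more than the spread between mice. The beta subunit Chrnb1 was the most abundant transcript, the adult epsilon subunit Chrne followed per kb of exon, and the foetal gamma subunit Chrng was the lowest of the 5. A gene was called when limma gave it a P value, before adjustment, below 0.05 together with at least a 2-fold difference, the thresholds stated with the study's results. By this rule, 0 of 5 subunits were called, against 2.43% of all 21011 genes. By P value alone (below 0.05 before adjustment) the count was also 0 of 5, against 9.79% of all genes, and it was 0 among the 4 subunits whose mean reached 1 CPM, against 13% of the genes at that level. No subunit had groups that did not overlap, whereas 5.73% of all genes did. No gene in muscle passed an adjusted P value of 0.05 in limma (smallest adjusted P = 0.184), and 2056 genes were below 0.05 before adjustment.

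The alpha subunit gene Chrna1 measured 3.96, 9.90, 9.07 and 5.49 CPM in VEH replicates 1 to 4. It measured 6.05, 4.40, 6.19 and 6.45 CPM in BAY replicates 1 to 4. The BAY values all lay inside the VEH range, and the VEH group held both the lowest and the highest library. Mean levels were 7.10 ± 2.84 CPM (SD, n = 4) in VEH and 5.78 ± 0.929 CPM (SD, n = 4) in BAY. The log2 fold change was -0.22 (SE 0.28, 95% interval -0.82 to 0.39, exact permutation P = 0.571, limma adjusted P = 0.817). The coefficient of variation among VEH mice was 40.0%, more than the 13.0% that counting error alone gives at this depth, and among BAY mice it was 16.1% against 15.6%.

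Chrnb1, the beta subunit shared by the foetal and adult receptors, was counted most deeply, with 1010 reads over the 8 libraries. Its levels were 16.1, 21.7, 12.2 and 15.0 CPM in VEH and 17.3, 21.5, 16.5 and 12.8 CPM in BAY. The groups covered almost the same range, and the lowest library of each lay close to the other. Mean levels were 16.3 ± 4.01 CPM in VEH and 17.0 ± 3.60 CPM in BAY (SD, n = 4 each). The log2 fold change was 0.07 (SE 0.20, 95% interval -0.35 to 0.50, exact permutation P = 0.686, limma adjusted P = 0.926).

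The delta subunit gene Chrnd, the neighbour of Chrng, gave 2 to 16 reads per library. It measured 0.815, 2.23, 1.73 and 1.55 CPM in VEH and 1.51, 0.326, 1.94 and 1.82 CPM in BAY. BAY replicate 2 was the lowest of all, at 2 reads, and the other BAY libraries sat within the VEH range. The log2 fold change was -0.37 (SE 0.60, 95% interval -1.66 to 0.91, exact permutation P = 0.686, limma adjusted P = 0.853), and it was 0.23 without BAY replicate 2.

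Chrne, the epsilon subunit of the adult synaptic receptor, measured 2.21, 5.58, 5.61 and 3.58 CPM in VEH. In BAY it measured 5.09, 4.73, 4.00 and 3.93 CPM. As with Chrna1, the BAY libraries were closely grouped inside a wider VEH range, and VEH replicate 1 was the lowest library for both genes. Mean levels were 4.25 ± 1.66 CPM in VEH and 4.44 ± 0.567 CPM in BAY (SD, n = 4 each). The log2 fold change was 0.15 (SE 0.30, 95% interval -0.50 to 0.80, exact permutation P = 0.743, limma adjusted P = 0.883), and it was -0.13 without VEH replicate 1.

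Chrng, the gamma subunit of the foetal receptor, gave 2, 2, 6 and 1 reads in VEH replicates 1 to 4. It gave 3, 3, 1 and 0 reads in BAY replicates 1 to 4. The highest library was VEH replicate 3 at 0.648 CPM, and 7 of the 8 libraries lay at or within 3 reads. The fitted log2 fold change of -2.23 (SE 2.05, 95% interval -6.64 to 2.18, exact permutation P = 0.6, limma adjusted P = 0.724) depends on the small offset that stands in for the 0 of BAY replicate 4, and was -0.07 with a pseudocount of 1 CPM and 0.16 without that library. A difference in Chrng was not detectable at this depth. The 95% intervals of Chrna1, Chrnb1 and Chrne lay within 1 on the log2 scale on either side of 0, and those of Chrnd and Chrng reached beyond it.

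**Figure D1:**
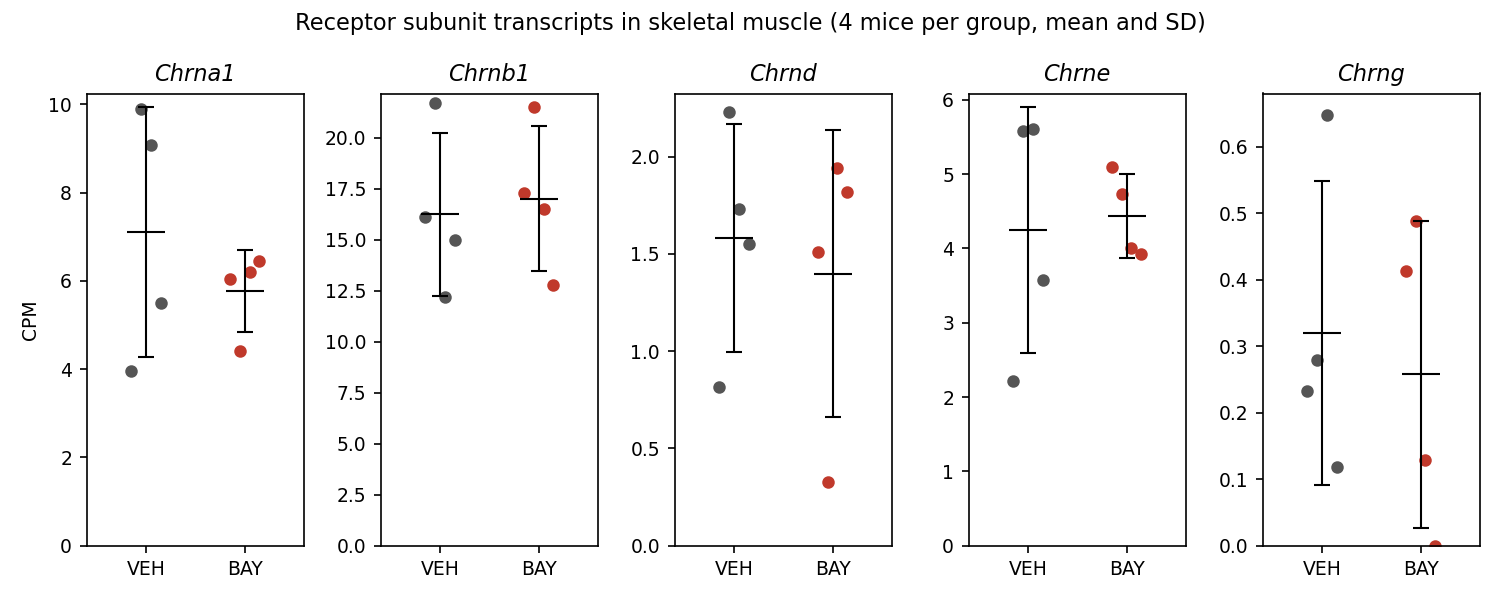
Level of each receptor subunit transcript in skeletal muscle, in CPM on linear axes that start at 0, for 4 VEH (grey) and 4 BAY (red) mice. Points are libraries, the bar is the mean and the whiskers are the SD, and the groups overlap for all 5 genes.

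Levels of different genes were compared per kb of exon, as the union of annotated exons, over the 8 muscle libraries. The order was Chrnb1 at 6.38 ± 1.36, Chrne at 2.45 ± 0.648, Chrna1 at 1.42 ± 0.458, Chrnd at 0.413 ± 0.173 and Chrng at 0.0687 ± 0.0513 CPM per kb (SD, n = 8). The epsilon subunit thus stood above alpha per kb although its CPM was lower, since Chrna1 has 4541 bp of exon and Chrne 1775 bp. The 10 possible pairs were compared with exact two-sided sign-flip tests over the same libraries that set this order, with P values adjusted over the 10, and each of the 4 neighbouring pairs differed by more than the spread between libraries. Chrnb1 exceeded Chrne by 2.65-fold, Chrne exceeded Chrna1 by 1.74-fold and Chrna1 exceeded Chrnd by 3.75-fold, each in 8 of 8 libraries with the smallest P that 8 libraries allow (exact P = 0.00781, adjusted P = 0.00868). Chrnd was above Chrng in 7 of 8 libraries (exact P = 0.0156, adjusted P = 0.0156), with the 0 of BAY replicate 4 put at the floor of 3 reads, and BAY replicate 2, where Chrnd had 2 reads and Chrng 3, as the exception. The fold between them rests on few reads, at 5.19 so computed and 3.75 with every value under 3 reads put at the floor. The order was the same by the length of the longest coding transcript.

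The adult subunit prevailed over the foetal one in every muscle library. The reads of Chrne were 19, 40, 52 and 30 in VEH and 37, 29, 31 and 28 in BAY, beside the 0 to 6 reads of Chrng given above. Per kb, the ratio of Chrne to Chrng was 22.5 (95% Wilson interval 5.82 to 86.9), 47.4 (12.6 to 178), 20.5 (9.02 to 46.7) and 71.0 (12.3 to 412) in VEH replicates 1 to 4. It was 29.2 (9.55 to 89.3), 22.9 (7.41 to 70.7) and 73.4 (12.7 to 425) in BAY replicates 1 to 3, and in BAY replicate 4, with 0 Chrng reads, its Wilson lower limit was 17.3. The floor of 3 reads for Chrng put that library at 22.1, the value used in the tests. Since a library with 1 Chrng read gives a higher ratio than one with 0 reads put at the floor, the libraries are not ranked by it. The mean log2 ratio over the 8 libraries was 5.08, the same direction in 8 of 8 (exact two-sided sign-flip P = 0.00781, the smallest possible), and 4.53 with every library under 3 Chrng reads put at the floor (exact P = 0.00781).

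Of the reads on the epsilon and gamma genes together, Chrng took 11 of 152 in VEH, or 7.24% (95% Wilson interval 4.09% to 12.5%), and 7 of 132 in BAY, or 5.30% (2.59% to 10.5%). These intervals overlap widely and cover counting error only. Single libraries ranged from 0 of 28 reads in BAY replicate 4, with an upper bound of 12.1%, to 10.3% (4.83% to 20.8%) in VEH replicate 3. Per kb, Chrng made up 3.19% of the pair in VEH and 2.31% in BAY. The log2 ratio of Chrne to Chrng was 5.14 ± 0.86 in VEH and 5.01 ± 0.81 in BAY (SD, n = 4 each, with BAY replicate 4 at the floor), a difference of -0.13 (exact two-sided permutation P = 0.971, where the smallest possible is 0.0286). With every library under 3 Chrng reads put at the floor, the difference was 0.16 (exact permutation P = 0.543), so it has no settled direction. A shift between the foetal and the adult subunit was therefore not detectable with 0 to 6 Chrng reads per library.

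**Figure D2:**
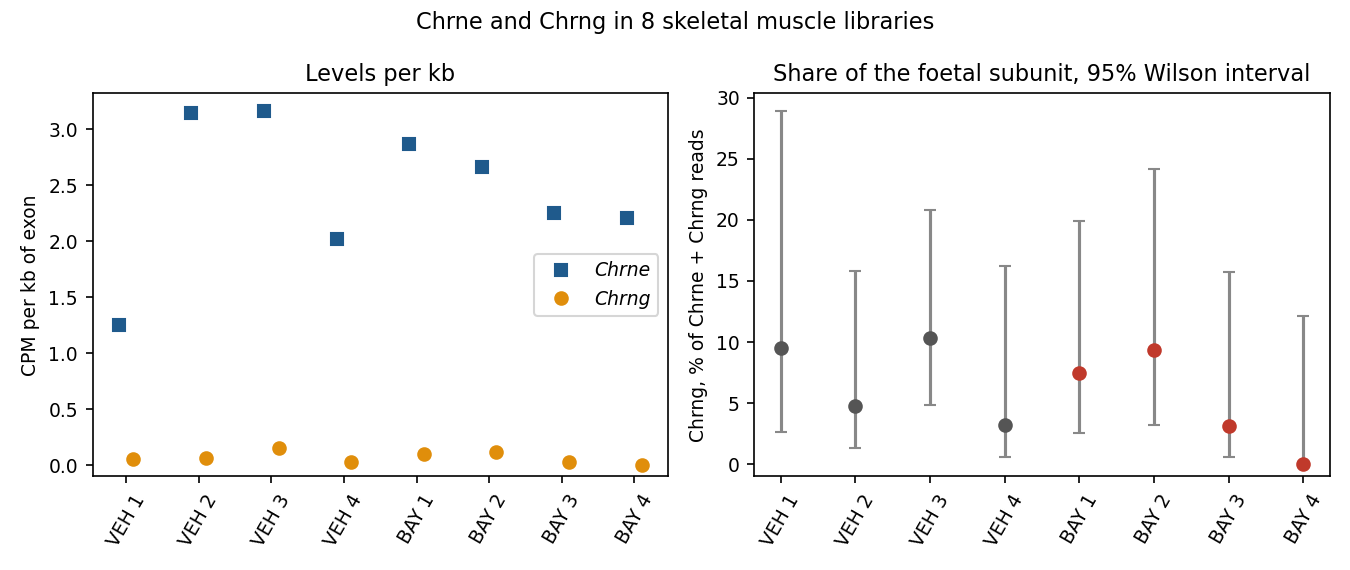
Chrne and Chrng in the 8 muscle libraries. Left, CPM per kb of exon for Chrne (squares) and Chrng (circles), with every Chrne point above every Chrng point. Right, Chrng as a percent of the reads on both genes in VEH (grey) and BAY (red) libraries with 95% Wilson intervals, between 0% and 10.3%.

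Subunit transcripts were compared with each other across the 8 muscle libraries on the scale of log2(CPM + 1). Of the 10 pairs, Chrna1 with Chrnd had the highest correlation (Pearson r = 0.78, exact permutation P = 0.0228, Spearman rho = 0.86, exact permutation P = 0.0107, n = 8). Chrna1 with Chrne followed (r = 0.74, exact permutation P = 0.0336, rho = 0.69, exact permutation P = 0.0694, n = 8). Adjusted over 10 pairs, both exact permutation P values on r came to 0.168. Without VEH replicates 1 and 2, the libraries farthest from the median of Chrna1, r was 0.70 for Chrnd and 0.44 for Chrne, and that with Chrnb1 went from -0.13 to -0.84. Without the libraries farthest from the median of Chrnb1, VEH replicates 2 and 3, its r went from -0.35 to -0.75 with Chrnd and from 0.19 to 0.91 with Chrng, so these values depend on which libraries are kept. By rank, Chrne with Chrng was also at rho = 0.74 (exact permutation P = 0.0458, n = 8), with r = 0.52. Chrnb1 correlated with Chrna1 at r = -0.13 and with Chrnd at r = -0.35, the other pairs lay between -0.34 and 0.52, and the adjusted exact permutation P values of these 8 pairs lay between 0.62 and 0.75. With 4 libraries per group, correlations within groups were not computed. Among 7630 named genes whose mean reached 5 CPM, 4.09% correlated with Chrna1 at least as highly as Chrnd did, and 6.67% at least as highly as Chrne did.

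By the same measure, as a description over 8 libraries of both groups, the genes most like Chrna1 were Mrps9 (r = 0.974), Tmem233 (0.958) and Smc5 (0.955). Those most like Chrnb1 were Tpra1 (r = 0.919), Pou4f1 (0.902) and Tmcc1 (0.884). Those most like Chrnd were Skap2 (r = 0.937), Fan1 (0.935) and Dpp3 (0.932), and those most like Chrne were Sec16a (r = 0.945), Casc3 (0.942) and Apbb2 (0.938).

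The genes that cluster, anchor, regulate or accompany the receptor were taken from 6 lists of 61 genes, of which 51 were in the muscle table. Of these, 7 were higher in BAY by P value before adjustment and 0 were lower, a share of 13.7% beside 9.79% of all genes, and 0 were called. Among the 41 that averaged at least 1 CPM the share was 17.1%, beside 13% of all genes at that level. Their median log2 fold change was 0.09, beside 0.06 for all genes. Of 15 clustering and anchoring genes, 3 were higher, among them agrin (Agrn), the nerve- and muscle-derived signal that gathers receptors, and Utrn, the utrophin of the synaptic membrane. Agrn measured 9.31, 18.1, 10.3 and 13.6 CPM in VEH and 23.4, 18.9, 22.3 and 17.2 CPM in BAY, with groups that overlapped at VEH replicate 2. Its log2 fold change was 0.71 (SE 0.20, exact permutation P = 0.0571, limma adjusted P = 0.311). Utrn had a log2 fold change of 0.28 (SE 0.12, exact permutation P = 0.0571, limma adjusted P = 0.492), with groups that overlapped, and did not pass the unadjusted threshold in 8 of 18 alternatives. Rapsn, the protein that binds receptors into clusters, had a log2 fold change of 0.21 (limma adjusted P = 0.691), and Musk, the receptor kinase that responds to agrin, -0.17 (limma adjusted P = 0.846).

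Of the 4 genes of synaptic acetylcholinesterase, Ache, the enzyme that breaks down the transmitter, had a log2 fold change of 0.47 and passed the unadjusted threshold (SE 0.20, exact permutation P = 0.143, limma adjusted P = 0.466), and the others did not. The groups of Ache overlapped, and it fell short of that threshold in 7 of 18 alternatives. None of the 9 measured genes of subsynaptic transcription passed the unadjusted threshold. Of 16 genes of denervation and myogenic control, 2 were higher, Hdac5, a class II histone deacetylase of muscle, and Id1, an inhibitor of MyoD-family factors. The counts of these single lists stand beside 9.79% of all genes, and 13% of genes averaging at least 1 CPM, below the unadjusted threshold. Hdac5 lay between 34.7 and 56.9 CPM in VEH and between 63.3 and 76.4 CPM in BAY, and Id1 between 3.49 and 4.64 CPM in VEH and between 5.92 and 6.59 CPM in BAY, so that neither overlapped between groups. Of the 51 listed genes 4 had groups that did not overlap, beside 5.73% of all genes, and the others were Lrp4, the agrin receptor (12.1 to 20.4 CPM in VEH, 20.9 to 26.4 CPM in BAY), and Cttn, an actin-binding protein (7.28 to 13.0 CPM in VEH, 13.1 to 14.3 CPM in BAY), which did not pass the unadjusted threshold in limma. The log2 fold changes of Hdac5 and Id1 were 0.59 (SE 0.15, limma adjusted P = 0.283) and 0.64 (SE 0.20, limma adjusted P = 0.334). The other genes known to respond to loss of the nerve overlapped between groups where they were examined beside Chrng: Myog, a myogenic factor of the MyoD family, was at 2.33 to 3.46 CPM in VEH and 2.34 to 4.08 CPM in BAY. Myod1 lay at 14.0 to 17.6 CPM in VEH and 11.7 to 20.3 CPM in BAY. Runx1, a transcription factor, lay at 2.86 to 8.23 CPM in VEH and 5.23 to 7.61 CPM in BAY, and the adhesion molecule gene Ncam1 at 1.98 to 8.92 CPM in VEH and 3.59 to 8.26 CPM in BAY.

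Of the 11 other nicotinic subunits, which form neuronal and sensory receptors, 6 were in the muscle table, and of the 5 muscarinic receptors 1 was. Chrna10 passed the unadjusted threshold but was not called (6.26 ± 1.88 CPM in VEH, 9.13 ± 0.885 CPM in BAY, SD, n = 4 each). Its groups overlapped, and its log2 fold change was 0.58 (SE 0.21, exact permutation P = 0.0571, limma adjusted P = 0.409). Its reads were not whole numbers, between 40.9 and 74.5, and the gene overlaps Art1 on the opposite strand, so its level is uncertain. Chrnb2 lay between 0.138 and 1.04 CPM over the 8 libraries, with at most 7.0 reads.

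In cortical bone all 5 subunits were also present in the table, with 16 to 116 reads per gene and group. By reads, without division by length, the order of the subunits was not that of muscle, and levels per kb are given below. Chrna1 and Chrng, with 186 and 174 reads over the 8 libraries, were the most counted and also have the most exon, 4.54 and 4.2 kb. Chrnb1, the most counted in muscle, has 2.61 kb and had 49 reads. None was called, against 0.64% of all 38933 genes. With limma voom on recovered reads, the method that the study names, 3.68% of all genes were called and Chrng was among them. Voom with quantile normalization called 3.47% of genes, Chrnd and Chrng included, and the fit on deposited values without VEH replicate 2 called 2.87%, Chrng included. By P value alone the count in the fit of all 8 libraries on deposited values was again 0 of 5, against 0.64% of genes. The smallest adjusted P value in limma over all genes was 0.887, with 249 genes below 0.05 before adjustment, and the log2 fold change of all genes had a median of 0.84, so the values of single genes are read against that shift.

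Chrng in bone gave 1, 28, 12 and 18 reads in VEH and 34, 31, 23 and 27 reads in BAY. In CPM these were 0.144, 25.8, 4.25 and 13.1 in VEH and 15.2, 12.8, 11.7 and 29.0 in BAY. VEH replicate 1 was far below the rest, VEH replicates 2 and 4 lay among the BAY libraries in CPM, and the groups overlapped. The log2 fold change was 2.08 (SE 1.39, 95% interval -0.92 to 5.09, exact permutation P = 0.257, limma adjusted P = 0.887), and without VEH replicate 1 it was 0.51. Limma voom on recovered reads put it at 2.83, past both thresholds, and at 0.61, short of both, without VEH replicate 1. Leaving out VEH replicate 1 also moved the median log2 fold change of bone genes averaging at least 1 CPM from 0.84 to -0.09. With voom that median went from 1.09 to -0.04. Values without this library, here and for the other subunits, are read against those medians.

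Chrna1 gave 8, 28, 11 and 23 reads in VEH and 32, 31, 18 and 35 in BAY, with overlapping groups and a log2 fold change of 1.26 (SE 1.03, exact permutation P = 0.343, limma adjusted P = 0.887), or 0.42 without VEH replicate 1. Chrne gave 14, 7, 3 and 1 reads in VEH and 6, 13, 5 and 1 in BAY, and was the only subunit whose highest count was in VEH replicate 1. Its log2 fold change was 0.49 (SE 1.59, exact permutation P = 0.514, limma adjusted P = 0.957). Chrnd gave 5, 19, 15 and 8 reads in VEH and 10, 7, 3 and 10 in BAY, with a log2 fold change of -0.22 (SE 1.31, exact permutation P = 0.914, limma adjusted P = 1) that was -1.09 without VEH replicate 1. Chrnb1 gave 7, 3, 4 and 2 reads in VEH and 11, 16, 3 and 3 in BAY, with a log2 fold change of 1.20 (SE 1.46, exact permutation P = 0.0571, limma adjusted P = 0.887). Its highest read counts were in BAY replicates 2 and 1 and VEH replicate 1, in that order, which were also the bone libraries with the most muscle fibre transcripts. In CPM this held for BAY replicates 2 (6.62) and 1 (4.92) only. VEH replicate 1, the deepest library, was the lowest of the 8 at 1.01 CPM, and BAY replicate 4 (3.22 CPM) and VEH replicate 2 (2.76 CPM) came next after the highest.

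**Figure D3:**
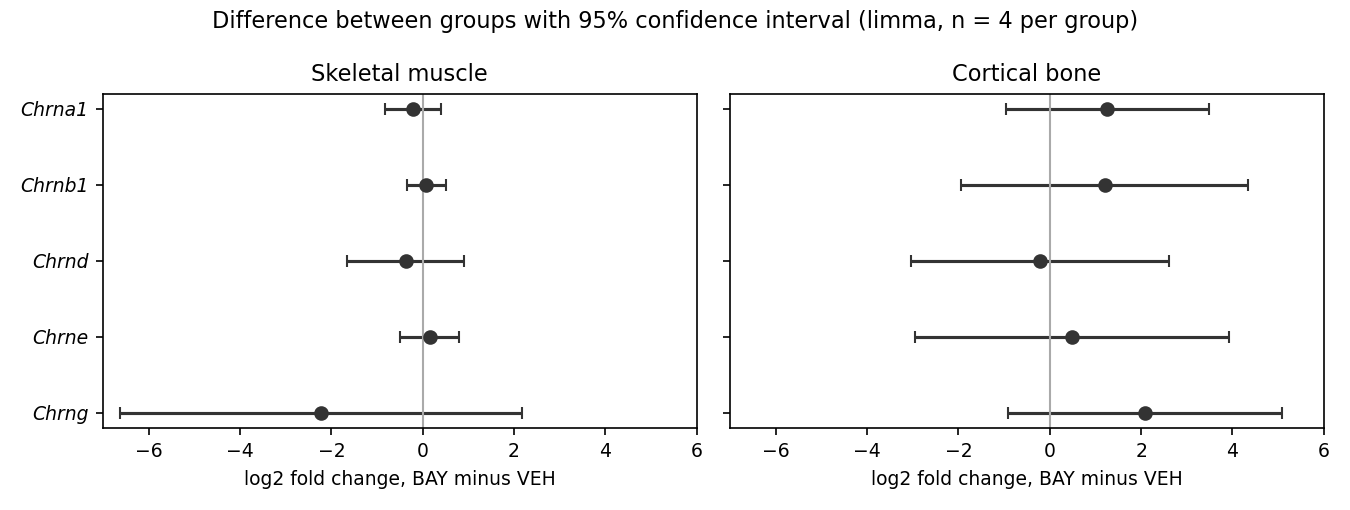
Log2 fold change, BAY minus VEH, of each receptor subunit in skeletal muscle (left) and cortical bone (right), as points with 95% confidence intervals from limma, n = 4 per group. All 10 intervals include 0, and those in bone are wider than those in muscle for every subunit except Chrng.

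The bone libraries also differed in other signals. The 13 muscle fibre markers summed to 10798, 278, 90.4 and 51.0 CPM in VEH and 40488, 44114, 1535 and 108 CPM in BAY, so VEH replicate 1 and BAY replicates 1 and 2 held far more muscle transcript than the others. Of these markers, 3 were at 0 in at least 1 bone library and none was at 0 in all of them. Genes of the olfactory receptor family (symbol Olfr), the odorant receptors of the nasal epithelium, gave reads in all bone libraries, and 1355 of them were in the bone table against 43 in the muscle table. Over the 1353 with an exon length they gave 0.917, 8.17, 3.96 and 7.93 reads per kb in VEH and 6.92, 6.39, 5.25 and 8.43 reads per kb in BAY. The lowest of these values, as for Chrng, was that of VEH replicate 1.

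Per kb of exon, Chrng stood at 0.259 to 1.17 times the olfactory receptor density of the same library, with a median of 0.789. At that density alone its 4.2 kb would have had 202 reads over the 8 libraries, where 174 were counted. Chrna1 stood at a median of 0.835 times the density (range 0.612 to 1.92), with 186 reads counted and 218 at the density. Chrnb1, Chrnd and Chrne had medians of 0.303, 0.365 and 0.486 times the density, below those of Chrng and Chrna1. The neuronal and sensory nicotinic subunits and muscarinic receptors had medians between 0.179 (Chrna7) and 2.84 (Chrm5) times the density in the same libraries, with 11 of 16 above 1. Each muscle subunit exceeded the density of olfactory receptor genes in only 1 to 3 of the 8 libraries, and the part of that density in the values of each gene was not tested.

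The largest ratios of 4 subunits were in VEH replicate 1, where Chrne stood at 8.60 times, Chrnb1 at 2.92 times, Chrna1 at 1.92 times and Chrnd at 1.51 times the olfactory receptor density, while Chrng stood at 0.259 times. The 14 Chrne reads of that library compare with 1.63 reads at the olfactory receptor density and 2.32 reads at the ratio of Chrne to fibre markers found in muscle, so the count was 3.55 times their sum. Against the same sum in that library, Chrnd stood at 1.22, Chrna1 at 1.12, Chrnb1 at 0.607 and Chrng at 0.25 times. In BAY replicates 1 and 2 Chrnb1 stood at 0.378 and 0.539 times the sum. For Chrnb1 in BAY replicates 1 and 2, 11 and 16 reads were counted, 18.0 and 16.7 reads correspond to the density, and 11.0 and 13.0 reads correspond to the muscle ratio. For Chrng the muscle ratio corresponds to at most 0.201 reads in any bone library. The share of muscle fibre in these values was not tested.

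The ratio of Chrne to Chrng in bone is given library by library. Per kb it was 33.2 in VEH replicate 1, where it rests on 1 Chrng read (95% Wilson interval 5.57 to 197), and 0.592, 0.592 and 0.132 in VEH replicates 2 to 4. In BAY it was 0.418, 0.993, 0.515 and 0.0877. Chrng made up 6.67% of the reads on both genes in VEH replicate 1 (95% Wilson interval 1.19% to 29.8%) and 70.5% to 96.4% in the other 7 bone libraries. That share is not corrected for exon length, 4203 bp for Chrng and 1775 bp for Chrne. Per kb it was 50.2% (BAY replicate 2) to 91.9% (BAY replicate 4) in those 7. The Wilson intervals of the ratio per kb included 1 in VEH replicates 2 (0.264 to 1.33) and 3 (0.18 to 1.95). They also did in BAY replicates 2 (0.525 to 1.88) and 3 (0.203 to 1.31), and lay below 1 in VEH replicate 4 and BAY replicates 1 and 4. The tables of bone and muscle were normalized separately, and no level was tested between tissues.

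**Figure D4:**
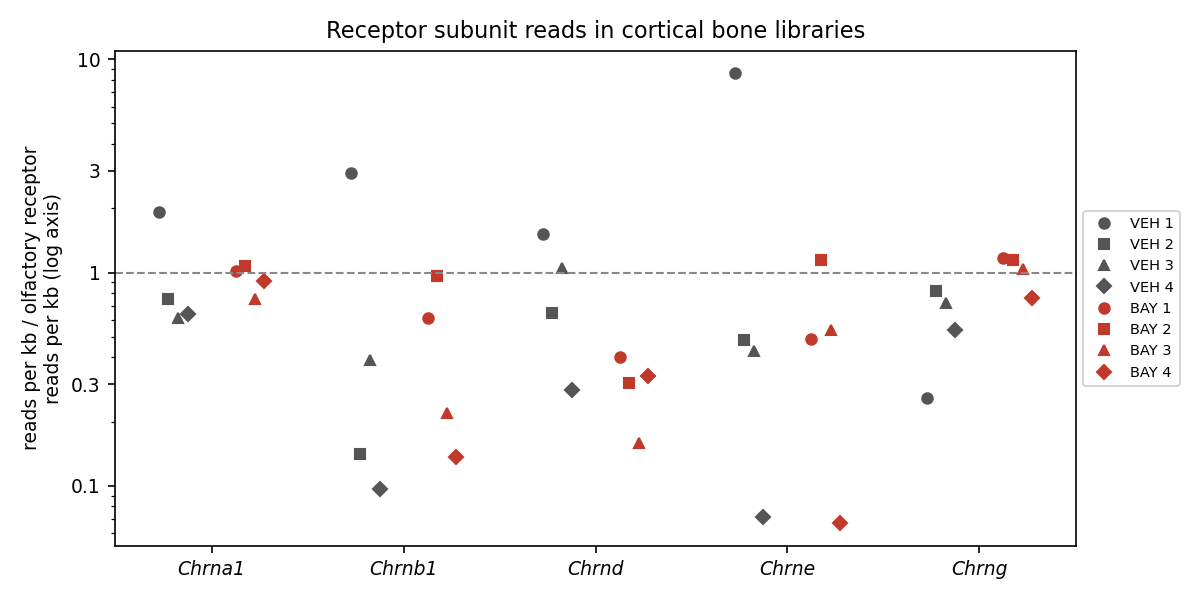
Reads per kb of exon of each receptor subunit in cortical bone, divided by the reads per kb of olfactory receptor genes in the same library, on a log axis, for VEH (grey) and BAY (red) with 1 symbol per replicate. The dashed line is a ratio of 1, and VEH replicate 1 (grey circle) is the highest library for every subunit except Chrng, where it is the lowest.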

How the data were processed

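RNA-seq libraries of cortical bone and skeletal muscle (8 each, 4 VEH and 4 BAY) were assigned to groups by the sample labels. Per the study's methods and the submitters' processing notes, reads were trimmed, aligned with STAR (version 2.7.8a) to mm39, and quantified to Ensembl release 104 with the Partek E/M algorithm. The authors scaled counts to a common library total (CPM), added an offset (0.0004 in muscle, 0.0001 in bone) and deposited log2 values. Neither table listed a gene with fewer than 5 reads summed over its libraries, so absence from a table can reflect that limit. Both tables give gene ends 1 base past the annotated end, and this base was removed. All 16 columns were mapped to samples.

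The 4 BAY and 4 VEH libraries of a tissue were compared by limma 3.58.1 in R 4.3.3, on the deposited log2 values over all genes, with a mean-variance trend, no filter, no covariate and Benjamini-Hochberg adjustment. The study's methods name limma-voom, which was run on recovered reads as an alternative. P values are two-sided. Nothing in the labels ties libraries to each other beyond a replicate number, and each is described as a separate mouse. Exon lengths came from GENCODE M39. Ratios used exact permutation and sign-flip tests in Python 3.11.15 (numpy 2.4.6, pandas 2.3.3, scipy 1.17.1), with a library at 0 put at 3 reads. The limma fit was tried on simulated normal values on the scale of log2(CPM + 1), which is not the deposited scale. Voom and the ratio tests were not simulated. Alternatives were pseudocounts of 1 and 0.1 CPM, removal of genes averaging under 1 CPM, median centring, quantile normalization, eBayes without a trend, voom, a replicate block, other gene lengths and each mouse left out. Genes named beside the subunits were the listed genes with an unadjusted P value under 0.05 in muscle (1 of them is not reported here), Myog, Myod1, Runx1 and Ncam1, Rapsn, Musk, Lrp4 and Cttn (added after their values were seen), other nicotinic subunits with a mean of at least 0.5 CPM, and the 3 genes most correlated with each subunit of at least 1 CPM. The members, lists and rules were chosen with earlier results of these data known.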

Additional observations from a re-analysis of the deposited data

Results flagged for a closer look

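Among 26 groups of 4 libraries (each subunit's CPM in both tissues, the summed muscle fibre markers in both, and the ratio of Chrne to Chrng in muscle), 1 held a library far from the others. The muscle fibre markers of cortical bone summed to 10798 CPM in VEH replicate 1, and its gap to the next library was 0.979 of the group's range, which is past Dixon's 95% limit for 4 values. Chance flags about 1 in 20 such groups. The part of this library in the bone values of the subunits was not tested beyond the values given without it.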

How the results depend on the processing

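In muscle, 0 of 5 subunits were called, and 0 had an unadjusted P value under 0.05, in each of 18 alternatives, which include the replicate block and each mouse left out. Same-numbered libraries correlated at -0.10 to 0.04 in muscle and at 0.07, -0.08, 0.49 and 0.19 in bone for numbers 1 to 4, so not every pair varied together in either tissue and the numbers were not taken to pair the mice, and with the replicate block the counts stayed at 0 of 5 in both tissues. Chrng had no value with the filter at 1 CPM. Leaving out 1 mouse turned the direction of Chrnb1 (-0.05 to 0.22), Chrnd (-0.66 to 0.23), Chrne (-0.13 to 0.32) and Chrng (-3.26 to 0.16) in muscle, and moved Chrna1 (-0.47 to -0.03) without turning it. Without VEH replicate 3 and with voom, an alternative chosen after seeing the data, Chrnb1 was at -0.05. The mean log2 ratio of Chrne to Chrng stayed past the threshold in 12 of 12 alternatives (4.92 to 5.18 with each mouse left out, and 3.83 by reads alone). Its difference between groups was 0.54 with a pseudocount of 0.1 CPM (exact permutation P = 0.4), 0.16 with every library under 3 Chrng reads at the floor (chosen after seeing the data), -0.52 to 0.21 with each mouse left out, and -0.13 with the replicate block (exact P = 1). In bone, the count of called subunits was 1 with voom on recovered reads (Chrng, where 3.68% of all genes were called), 2 with voom and quantile normalization (Chrnd at -1.18, Chrng at 1.18, where 3.47% were called), and 0 to 1 with each mouse left out (Chrng at 3.00 without VEH replicate 2, where 2.87% were called). The count was 0 without VEH replicate 1 under voom, an alternative chosen after seeing the data. Chrnd in bone was at 0.38 with voom and -1.09 to 0.44 with each mouse left out. Chrna1 in bone was at 0.41 with median centring. Chrnb1 in bone was at 0.35 with median centring and 0.13 with voom and quantile normalization. Chrne in bone was at -0.36 with median centring, -2.13 with quantile normalization and -0.64 with voom and quantile normalization. Median centring and quantile normalization put the median log2 fold change of bone genes averaging at least 1 CPM at -0.01 and 0.06, beside 0.84. Leaving out 1 mouse put that median between -0.09 (without VEH replicate 1) and 1.49 (without VEH replicate 2). Agrn, Hdac5 and Id1 kept an unadjusted P value under 0.05 in 18 of 18 alternatives, Chrna10 in 17, Ache in 11 and Utrn in 10. The cause of these changes was not tested.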
